A study of Danio rerio with 12 samples.

Results

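Extraocular muscle (EOM), the small muscles that turn the eye, was compared with trunk muscle, the body wall muscle used for swimming, in wild-type (WT) zebrafish. The groups were the 3 libraries titled as WT EOM and the 3 titled as WT trunk, 6 of the 12 libraries of the series, and they were chosen by title, not by any measured value. All 6 came from fish of strain AB, of WT genotype and 20 months old, and the labels place their origin in the line in which the desma-/-;desmb-/- double mutant of the series was made. Muscle was dissected from freshly killed fish, RNA was extracted with TRIZOL, and poly-A selected, stranded libraries were made from total RNA. The labels name myofibers as the cell type, but what they describe is dissected muscle. They say neither how many fish a library holds nor whether an EOM and a trunk library share a fish, so the p-values measure the spread between these libraries. The series asks how EOM resists muscular dystrophy, and its other 6 libraries are EOM and trunk from 20-month-old fish labelled as desmin mutants. The series text calls this a knock-down of desmin, the sample labels a double mutant.

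Muscle fibres contract when calcium, released from the sarcoplasmic reticulum, frees actin from the block set by troponin and tropomyosin and lets myosin pull. Each of these proteins comes in isoforms that set how fast and for how long a fibre can work. In mammals EOM is known for fibres that carry many isoforms at once, including cardiac, slow-tonic and EOM-specific myosins, for dense innervation, and for arising in the head under other transcription factors than trunk muscle.

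The 3 WT EOM libraries held 50.8 to 69.9 M (mega) sense reads in genes, against 46.1 to 56.6 M in the 3 WT trunk libraries. Levels are given as CPM (read counts scaled to a common library size) on library sizes scaled by the trimmed mean of M-values, and since no gene lengths were used they compare tissues, not genes. Differences are log2 fold changes of EOM over trunk ± standard error from edgeR's quasi-likelihood test. A gene was called at a Benjamini-Hochberg adjusted p under 0.05 over the 18430 genes tested. The 14 genes matched to the myofibre markers, among them muscle creatine kinase, titin, nebulin and the SERCA pump, were all above 1 CPM in all 6 libraries. This low bar does not compare the amount of fibre RNA between the tissues. Of the desmin copies, DES copy ENSDARG00000058656 had 14.1 to 58.8 CPM on unscaled totals in the 6 mutant libraries, against 483 to 827 CPM in the 6 WT libraries. The second copy, ENSDARG00000005221, was near the counting floor in both genotypes, at 0.0521 to 0.230 CPM in mutants and 0.0530 to 0.138 CPM in WT, and checks no label.

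Of the 18430 genes, 4713 were called higher in WT EOM (25.6%) and 4278 lower (23.2%), 48.8% in all, and the median log2 fold change was 0.06. The counts of genes called in the lists below are to be read beside these shares. At least 2-fold differences were called for 5731 genes (31.1%), 16.1% higher and 14.9% lower. For 60.4% of the genes the EOM and trunk libraries did not overlap, with EOM above trunk for 32.2% and below it for 28.2%. The 20 most read genes took 31.9% to 33.9% of sense reads in the EOM libraries, against 44.5% to 47.5% in the trunk libraries. On unscaled library totals the median moved to 0.66 and 82.4% of the calls were higher in EOM, against 52.4% with scaling. All folds below are on the scaled library sizes unless stated, with no median subtracted, and so depend on that scaling. Of the 8821 WT calls that were also tested between mutant EOM and mutant trunk, 7133 were called there in the same direction and 11 in the opposite one, beside 53.1% of all genes called in that comparison (27.4% higher in EOM, 25.7% lower).

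Myosin transcripts, those of the thick filament motor, differed both by gene and in sum. The myosin heavy chain list summed to 31838, 33818 and 33982 CPM in EOM, against 94927, 108318 and 73879 CPM in trunk, with no overlap. Of the 18 myosin heavy chain genes tested, 10 were called higher in WT EOM and 6 lower. The fast myosin gene myhz1.1 had 14138, 16032 and 13705 CPM in the WT EOM libraries, against 168, 199.7 and 210.0 CPM in the WT trunk libraries (log2 fold change 6.25 ± 0.18, adjusted p = 2.97e-07). The lowest EOM library stood far above the highest trunk library. Its share of all reads in the myosin heavy chain list was 44.0% ± 3.55 in EOM and 0.215% ± 0.0598 in trunk (SD, n = 3 each). myhc4, also a fast myosin gene, had 8199, 8165 and 8932 CPM in EOM, against 89034, 103141 and 69533 CPM in trunk (log2 fold change -3.37 ± 0.18, adjusted p = 3.68e-06). It held 25.4% ± 1.11 of the list's reads in EOM and 94.4% ± 0.749 in trunk. These shares are of reads, uncorrected for gene length, and compare tissues only.

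The MYH6 copy ENSDARG00000079564, which carries the symbol of the human atrial and heart myosin alpha, had 663, 703 and 561 CPM in EOM, against 7.05, 5.996 and 4.01 CPM in trunk (log2 fold change 6.82 ± 0.27, adjusted p = 8.17e-07). The second gene with that symbol, the MYH6 copy ENSDARG00000114031, differed the other way, with 95.4, 109.1 and 102.1 CPM in EOM and 404, 377 and 325 CPM in trunk (log2 fold change -1.85 ± 0.15, adjusted p = 3.06e-05). The zebrafish gene named myh6 was scarce in both tissues, with 0.00208% of the list's reads in EOM and 0.000616% in trunk. MYH7, the symbol of the human slow and ventricular myosin, had 8.48, 8.12 and 7.999 CPM in EOM and 0.569, 0.743 and 0.827 CPM in trunk. The fast gene myhz2 was 62.3-fold higher in EOM, with no overlap between the tissues (log2 fold change 5.96 ± 0.27, adjusted p = 1.60e-06). Its neighbours in name, myhz1.2 and myhz1.3, were 5.19-fold and 2.83-fold higher. myhb was 13.5-fold higher, and myh7bb, a relative of the slow-tonic myosin of mammalian EOM, 2.37-fold higher. Its paralog myh7ba did not pass the test, with 173, 104.3 and 212 CPM in EOM and 187, 178 and 139.7 CPM in trunk. The slow fibre myosin smyhc2 was 13.6-fold lower in EOM, at 221, 318 and 216 CPM, against 4318, 3133 and 2808 CPM in trunk (log2 fold change -3.76 ± 0.24, adjusted p = 8.80e-06). myha had 2981, 2619 and 4366 CPM in EOM, against 32.7, 439.7 and 52.5 CPM in trunk (log2 fold change 4.25 ± 1.16, adjusted p = 0.0298). Trunk library 2 stood apart from the other trunk libraries at this gene, and the call was lost without any 1 of the EOM libraries or without trunk library 3, with an adjusted p of up to 0.09. Myosin genes are near-identical, and the authors kept multimapping reads out of the gene counts, so these counts may miss or misplace shared reads.

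Light chains followed with 4 of 14 tested genes higher in EOM and 5 lower, the higher count being near the 25.6% over all genes. The zebrafish gene zgc:163073, listed with the synonym myl3 for a slow and ventricular essential light chain, had 521, 708 and 427 CPM in EOM, against 3.55, 2.35 and 2.66 CPM in trunk (log2 fold change 7.59 ± 0.30, adjusted p = 8.17e-07). The atrial type light chain myl4 had 53.4, 36.2 and 38.2 CPM in EOM and 2.04, 1.27 and 0.928 CPM in trunk (log2 fold change 4.90 ± 0.30, adjusted p = 7.10e-06). Both MYL2 copies, the regulatory light chain of slow and heart muscle, were higher in EOM, with log2 fold changes of 4.57 ± 0.23 and 4.03 ± 0.25. Of the light chains typical of fast fibres, the MYL1 copy ENSDARG00000017441 was lower by 5.60-fold, the MYL11 copy ENSDARG00000053254 by 2.18-fold, myl10 by 9.84-fold and myl13 by 4.96-fold. All 4 had EOM libraries below every trunk library. The other MYL11 gene, the MYL11 copy ENSDARG00000002589, was not called, at 1.03, 1.49 and 1.29 CPM in EOM and 1.64, 1.92 and 2.81 CPM in trunk.

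Troponin genes parted in both directions, with 10 of 23 tested higher in EOM and 11 lower, or 11 and 10 on unscaled totals. Troponin I holds the thin filament off, and the TNNI1 copy ENSDARG00000000474, a slow type, had 131, 165 and 127 CPM in EOM, against 0, 0.120 and 0.0501 CPM in trunk (log2 fold change 11.26 ± 0.45, adjusted p = 8.17e-07). The reverse held for tnni4b.1, with 0.0919, 0.0505 and 0.0297 CPM in EOM, against 443, 301 and 477 CPM in trunk (log2 fold change -12.75 ± 0.38, adjusted p = 3.01e-07). Each gene was near its counting floor in all libraries of one tissue. Of the fast troponin I genes, the TNNI2 copy ENSDARG00000005841 had 2616, 2916 and 3057 CPM in EOM and 46.4, 65.4 and 36.1 CPM in trunk (log2 fold change 5.86 ± 0.26, adjusted p = 1.60e-06). Another, the TNNI2 copy ENSDARG00000029069, had 11.7, 12.6 and 12.4 CPM in EOM and 795, 721 and 1109 CPM in trunk (log2 fold change -6.16 ± 0.23, adjusted p = 6.56e-07). Troponin T, which ties the complex to tropomyosin, also parted by gene. The TNNT2 copy ENSDARG00000020610 had 84.7, 88.9 and 61.9 CPM in EOM, against 0.0657, 0.144 and 0.0752 CPM in trunk (log2 fold change 9.67 ± 0.31, adjusted p = 3.01e-07). Against it stood tnnt2d, with 0.980, 0.771 and 0.654 CPM in EOM and 216, 158 and 305 CPM in trunk (log2 fold change -8.14 ± 0.34, adjusted p = 9.85e-07). Among troponin C genes, the calcium sensors, tnnc2.1 was 18.7-fold higher in EOM and TNNC2 5.93-fold lower, both with no overlap. In the mutant libraries 21 of the 21 called troponin genes were called in the same direction, beside 7133 of 8821 WT calls over all genes.

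**Figure D1:**
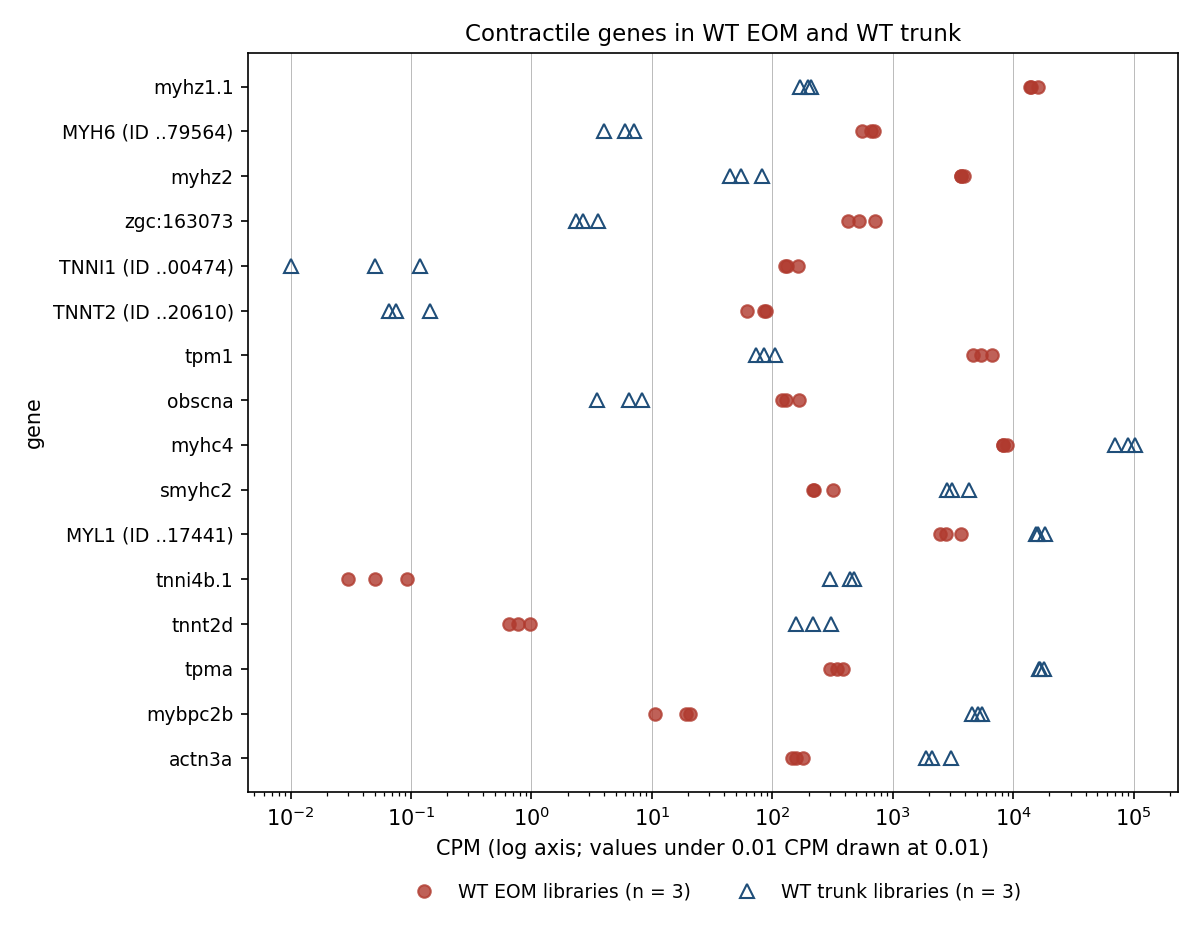
CPM of 16 contractile genes in each WT library, on a log axis with values under 0.01 CPM drawn at 0.01. Upper rows are higher in EOM and lower rows lower; filled circles are the 3 EOM libraries and open triangles the 3 trunk libraries. myhz1.1 lies at 13705 to 16032 CPM in EOM and 168 to 210.0 CPM in trunk, and tnni4b.1 lies at 0.0297 to 0.0919 CPM in EOM.

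On the thin filament, the tropomyosin tpm1 had 4643, 6607 and 5392 CPM in EOM, against 105.2, 73.1 and 85.6 CPM in trunk (log2 fold change 5.98 ± 0.24, adjusted p = 8.17e-07). tpma, the fast tropomyosin of zebrafish trunk, had 299, 388 and 342 CPM in EOM, against 16622, 18058 and 16323 CPM in trunk (log2 fold change -5.63 ± 0.18, adjusted p = 3.01e-07). It was added to the lists after its values were seen. The cardiac type actin actc1a was 22.3-fold higher in EOM and its paralog actc1b 3.25-fold lower. The ACTA1 copy ENSDARG00000055618, a skeletal actin, had 5443, 6571 and 6680.2 CPM in EOM and 194, 272 and 1270.0 CPM in trunk (log2 fold change 3.43 ± 0.77, adjusted p = 0.0119). Trunk library 3 was the high one of its group, and leaving out EOM library 2 took the adjusted p to 0.06. The other ACTA1 copy, ENSDARG00000036371, was called lower in EOM (log2 fold change -0.51). It had 57.8, 64.1 and 61.6 CPM in EOM and 71.2, 98.4 and 92.6 CPM in trunk. Of the 10 sarcomeric actin and tropomyosin genes tested, 6 were higher in EOM and 2 lower. Without EOM library 1, EOM library 3 or trunk library 2 it was 1 lower, as this second ACTA1 copy lost its call.

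The giant and scaffold proteins were mostly lower in EOM, 13 of 20 tested genes against 6 higher. Titin, the spring that spans the sarcomere from Z-disc to M-band, has 2 annotated copies. The TTN copy ENSDARG00000000563 had 1966, 2445 and 2336 CPM in EOM and 7343, 11586 and 8291 CPM in trunk (log2 fold change -2.01 ± 0.20, adjusted p = 8.81e-05). The other titin gene was 3.38-fold lower. Nebulin, NEB, which runs along the thin filament, was 5.78-fold lower, and MYOM2, an M-band protein, 5.03-fold lower. The fast myosin-binding protein mybpc2b had 10.6, 20.8 and 19.3 CPM in EOM, against 4579, 5523 and 5090.4 CPM in trunk (log2 fold change -8.23 ± 0.33, adjusted p = 8.17e-07). In the other direction, obscna, an obscurin gene of the link between myofibril and reticulum, had 131, 121 and 168 CPM in EOM and 6.44, 8.32 and 3.51 CPM in trunk (log2 fold change 4.52 ± 0.32, adjusted p = 1.46e-05). MYBPC1, the slow binding protein, was 2.51-fold higher.

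At the Z-disc and the membrane anchors, 11 of 38 tested genes were higher in EOM, near the 25.6% over all genes, and 19 lower. On unscaled totals these counts were 17 and 13. The fast alpha-actinin actn3a, which crosslinks actin, had 159, 145 and 181 CPM in EOM and 2134, 3065 and 1895 CPM in trunk (log2 fold change -3.87 ± 0.23, adjusted p = 5.46e-06). Its paralog actn2b, of the slow and cardiac type, had 48.0, 32.6 and 47.7 CPM in EOM and 8.41, 7.22 and 4.99 CPM in trunk (log2 fold change 2.64 ± 0.24, adjusted p = 4.91e-05). MYOZ1 and myoz1b, calsarcins that bind alpha-actinin and calcineurin, also parted, MYOZ1 being 14.7-fold lower in EOM and myoz1b 5.69-fold higher. Both FHL1 copies, LIM-only proteins, were higher (the FHL1 copy ENSDARG00000071498 6.82-fold, the FHL1 copy ENSDARG00000056653 4.84-fold). dmd and DAG1, dystrophin and dystroglycan, which link the cytoskeleton to the matrix, were 3.29-fold and 3.30-fold lower. The XIRP2 copy ENSDARG00000071113, an actin-binding repeat protein, was 8.84-fold lower. Desmin itself overlapped between the tissues, at 578, 681 and 646 CPM in EOM and 601, 649 and 558 CPM in trunk (log2 fold change 0.08 ± 0.14, adjusted p = 0.684).

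The 2 muscles carried different sets of positional and lineage factors. Of the 23 genes matched to the head muscle and periocular list, 17 passed the filter on low counts and 15 were higher in EOM, with none lower. Of these 17, 9 passed the filter through their EOM libraries alone, so for them no other direction could be called. MSC, musculin, a repressor active in head muscle precursors of mice, had 27.6, 22.5 and 28.1 CPM in EOM, against 0.109, 0.264 and 0.226 CPM in trunk (log2 fold change 7.03 ± 0.27, adjusted p = 8.17e-07). Its levels in trunk were below 1 CPM. The ALX4 copy ENSDARG00000088332, a craniofacial homeodomain factor, had 140.3, 133 and 175 CPM in EOM and 5.12, 2.66 and 3.08 CPM in trunk (log2 fold change 5.36 ± 0.29, adjusted p = 3.78e-06). LMX1B and FOXC1, factors of the tissue around the developing eye, were higher too, FOXC1 with 12.5, 13.3 and 12.8 CPM in EOM and 1.25, 1.77 and 1.55 CPM in trunk (log2 fold change 3.07 ± 0.18, adjusted p = 6.07e-06). For the LMX1B copy ENSDARG00000068365 the values were 5.57, 4.73 and 4.97 CPM in EOM and 0.0438, 0.0240 and 0.476 CPM in trunk, trunk library 3 being the highest of its group. TBX1, a regulator of branchial arch muscle, was 3.44-fold higher, and pitx3, a homeodomain factor of the eye, 3.28-fold higher. The FOXL2 copy ENSDARG00000042180 had 139 reads in the 3 EOM libraries and none in trunk, at least 9.11-fold higher when trunk is set to 3 reads per library. These factors are also made by connective tissue around the eye, and in bulk samples fewer cells of a type and less RNA per cell cannot be told apart.

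The list of trunk and limb or fin factors split, with 9 of 15 tested genes lower in EOM and 4 higher. Over all genes 23.2% were called lower and 25.6% higher. Of these 15, 4 passed the filter on low counts through trunk alone and 1 through EOM alone. Each of those could be called in 1 direction only. lbx1a, a homeodomain factor of migrating muscle precursors, had 5.18, 5.69 and 5.10 CPM in EOM and no read in trunk, at least 75.0-fold higher on the same floor. lbx2 had 33.2, 36.0 and 39.6 CPM in EOM, against 2.32, 2.23 and 1.33 CPM in trunk (log2 fold change 4.20 ± 0.23, adjusted p = 3.78e-06). TBX15, linked in mice to fast glycolytic fibres, was 4.79-fold higher and TBX18 2.66-fold higher. en1b, an engrailed gene that marks part of the zebrafish somite, had 0.613, 0.606 and 0.431 CPM in EOM, against 15.5, 13.5 and 15.8 CPM in trunk (log2 fold change -4.76 ± 0.21, adjusted p = 1.38e-06). MEOX2, a somite homeodomain factor, had 1.64, 0.859 and 2.22 CPM in EOM and 9.04, 7.70 and 8.93 CPM in trunk, and ZIC1, a factor of the dorsal somite, 0.521, 0.518 and 0.818 CPM in EOM and 3.39, 2.85 and 2.33 CPM in trunk. The PAX3 copy ENSDARG00000028348, needed in trunk but not EOM precursors of mice, had 0, 0 and 0.0595 CPM in EOM, at or near its counting floor, and 0.679, 0.552 and 0.401 CPM in trunk.

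Hox genes, which give cells their position along the trunk, were close to absent from EOM. Of 48 matched genes 29 passed the filter, and all 29 tested were lower in EOM. Summed over the list, EOM libraries held 1.21, 1.36 and 1.46 CPM, against 201, 195 and 189.7 CPM in trunk libraries. HOXD9 had 0.0613, 0.0884 and 0.119 CPM in EOM and 18.8, 16.6 and 18.8 CPM in trunk (log2 fold change -7.62 ± 0.24, adjusted p = 3.01e-07). HOXC9 had no read in EOM and 6.07, 5.66 and 5.87 CPM in trunk, at least 137-fold lower, and HOXC11 at least 167-fold lower. The median log2 fold change of the list was -6.82 with the 8 genes that had no EOM read set at their bound. Of the 29 tested, 28 passed through their trunk libraries alone, so the count says only that none was high in EOM.

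**Figure D2:**
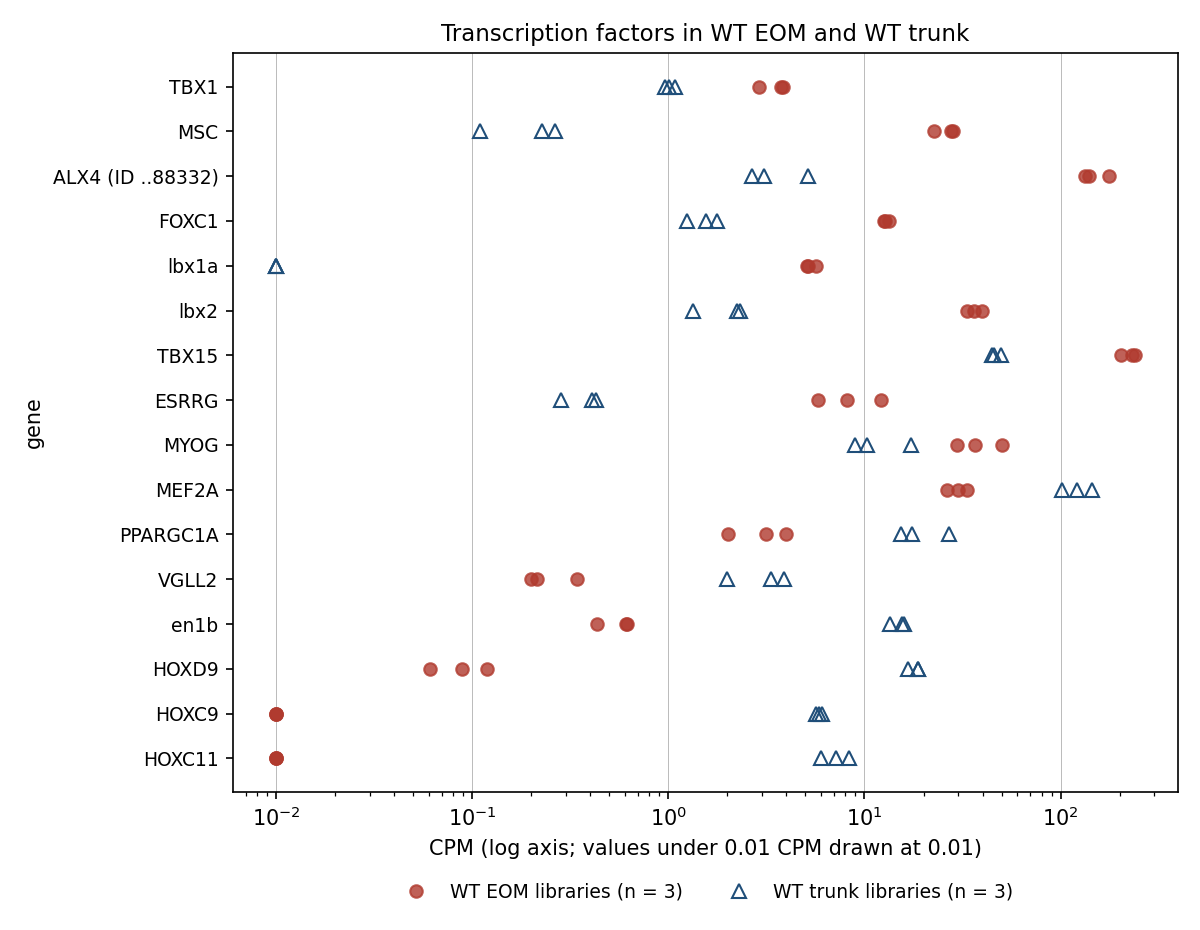
CPM of 16 transcription factors in each WT library, on a log axis with values under 0.01 CPM drawn at 0.01; filled circles are the 3 EOM libraries and open triangles the 3 trunk libraries. Head factors (upper rows) lie to the right in EOM, and Hox and somite factors (lower rows) to the right in trunk.

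Among factors of muscle differentiation, MYOG and MYOD1, which switch on muscle genes in precursors and fibres, were 3.1998-fold and 2.17-fold higher in EOM. MYMK, the myoblast fusion protein myomaker, had 1.87, 1.11 and 2.44 CPM in EOM and 0.109, 0.168 and 0.1003 CPM in trunk (log2 fold change 3.82 ± 0.44, adjusted p = 1.79e-04). The PAX7 copy ENSDARG00000100398, a satellite cell marker, had 0.0613, 0.0379 and 0.0149 CPM in EOM, against 0.569, 0.911 and 0.752 CPM in trunk (log2 fold change -4.22 ± 0.54, adjusted p = 3.26e-04). The second PAX7 gene, the PAX7 copy ENSDARG00000070818, was not called, at 1.23, 0.493 and 1.55 CPM in EOM and 1.25, 0.767 and 0.827 CPM in trunk. MYF5 overlapped between the tissues, at 2.31, 2.56 and 2.88 CPM in EOM and 2.30, 2.64 and 2.33 CPM in trunk. The MADS factor MEF2A was 4.09-fold lower in EOM, the MEF2C copy ENSDARG00000009418 3.09-fold lower and EYA4 3.35-fold lower. In all, 6 of 24 tested genes were higher and 11 lower, which turned to 10 and 6 on unscaled totals. With scaling, the higher count was near the share over all genes (25.6%).

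Regulators of fibre type were mostly lower, 16 of 29 tested genes against 3 higher. PPARGC1A, a coactivator of mitochondrial genes, had 2.02, 3.13 and 3.97 CPM in EOM and 15.3, 17.5 and 26.8 CPM in trunk (log2 fold change -2.71 ± 0.30, adjusted p = 1.43e-04). The orphan receptor ESRRG, which also drives mitochondrial genes, went the other way, with 8.12, 5.77 and 12.1 CPM in EOM and 0.285, 0.408 and 0.426 CPM in trunk (log2 fold change 4.54 ± 0.34, adjusted p = 1.99e-05). VGLL2 and vgll2b, muscle cofactors of TEAD factors, were 12.1-fold and 4.69-fold lower. SOX6, which represses slow genes in fast fibres, was 2.35-fold lower, and NFIX, which drives the fetal fibre programme in mice, 6.72-fold lower.

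In metabolism the clearest difference was the energy buffer. Of 14 tested genes of creatine and nucleotide buffering, 10 were lower in EOM and 3 higher. ckma, muscle creatine kinase, had 4795, 5580.1 and 5541 CPM in EOM, against 31698, 36537 and 29002 CPM in trunk (log2 fold change -2.61 ± 0.15, adjusted p = 5.68e-06). Its paralog ckmb had 11659, 13542 and 12688 CPM in EOM, against 56169.6, 66860.5 and 55102 CPM in trunk (log2 fold change -2.23 ± 0.15, adjusted p = 9.44e-06). Both EOM groups lay wholly below trunk. GATM, the enzyme that opens creatine synthesis, was 15.5-fold lower, and AK1, adenylate kinase, 2.18-fold lower. The CKB copy ENSDARG00000069752, a brain type creatine kinase, was 2.33-fold higher.

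Of the oxidative genes, those of the tricarboxylic acid cycle and fatty acid oxidation were more often lower on this scale. This list had 28 of 50 tested genes lower in EOM and 2 higher, and on unscaled totals 14 lower and 13 higher. Citrate synthase, CS, had 568, 669 and 587 CPM in EOM, against 1273, 1382 and 1292 CPM in trunk (log2 fold change -1.11 ± 0.14, adjusted p = 3.14e-04). DLST, a subunit of the 2-oxoglutarate dehydrogenase complex, was 3.35-fold lower, and PDK4, a brake on pyruvate dehydrogenase, 3.06-fold lower. Myoglobin, mb, which stores oxygen, had 11.9, 23.6 and 15.4 CPM in EOM and 245, 203 and 356 CPM in trunk (log2 fold change -3.98 ± 0.32, adjusted p = 2.65e-05). UCP2, an uncoupling protein, was higher, at 129.8, 177 and 109.2 CPM in EOM and 52.6, 38.9 and 59.7 CPM in trunk (log2 fold change 1.46 ± 0.23, adjusted p = 9.49e-04).

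Respiratory chain genes gave less certain counts, 17 of 76 tested lower and 9 higher, or 4 higher without trunk library 2. Over all genes 23.2% were called lower and 25.6% higher, so the lower count was near the background and the higher count under it. Summed over the list, EOM libraries held 26307, 39836 and 26174 CPM, against 41937, 39284 and 46521 CPM in trunk libraries. EOM library 2 was the high one and reached the trunk range. Without it 40 were lower. Without EOM library 1 9 were lower, without EOM library 3 10, and on unscaled totals 3 lower and 29 higher. The direction of the list therefore rests on the scaling. The ATP synthase subunits ATP5F1A and ATP5F1B were called lower in each of these fits, at 2.22-fold and 2.23-fold lower. COX4I2, the alternative isoform of cytochrome oxidase subunit 4, had 51.2, 48.1 and 41.7 CPM in EOM and 16.7, 14.4 and 11.99 CPM in trunk (log2 fold change 1.71 ± 0.17, adjusted p = 7.51e-05).

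Glycolysis genes were called in both directions, 16 of 42 tested higher and 14 lower, or 23 and 7 on unscaled totals. The PKM copy ENSDARG00000099730, a pyruvate kinase, had 131, 182 and 126 CPM in EOM and 34.5, 25.4 and 38.8 CPM in trunk, while the PKM copy ENSDARG00000099860 had 849.9, 964 and 1009.6 CPM in EOM and 1788, 1796 and 1806 CPM in trunk. Their log2 fold changes were 2.15 ± 0.22 and -0.93 ± 0.14. The enolase genes split alike, the ENO1 copy ENSDARG00000013750 being 3.76-fold higher and the ENO1 copy ENSDARG00000022456 3.39-fold lower. So did the muscle glycogen phosphorylases, the PYGM copy ENSDARG00000013317 at 4.12-fold higher and the PYGM copy ENSDARG00000055518 at 2.16-fold lower. GAPDH was not called, at 21359, 24655 and 21468 CPM in EOM and 21354, 21229.9 and 18011 CPM in trunk. Over the listed symbols shared by a pair of tested genes, both copies were called in 61 pairs and 18 of these parted in direction (29.5%). Over all genes it was 95 of 337 such pairs (28.2%), so the listed pairs were near the background.

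Calcium handling genes also parted by gene, with 16 of 49 tested higher and 23 lower, or 20 and 18 on unscaled totals. Ryanodine receptors release calcium from the reticulum, and RYR3 had 21.0, 17.3 and 24.9 CPM in EOM, against 1319, 2122 and 1194 CPM in trunk (log2 fold change -6.20 ± 0.30, adjusted p = 2.53e-06). In other fish, trunk muscle carries an alpha and a beta release channel, and superfast eye and swim bladder muscles are known for the alpha form alone. The RYR1 copy ENSDARG00000023797 had 90.2, 69.9 and 121 CPM in EOM and 764, 1311 and 877 CPM in trunk (log2 fold change -3.39 ± 0.28, adjusted p = 3.11e-05). Its sister gene the RYR1 copy ENSDARG00000011422 was 1.79-fold higher in EOM, the only ryanodine receptor of the list called in that direction (log2 fold change 0.84 ± 0.19, adjusted p = 0.00638). Of the voltage sensor genes, the CACNA1S copy ENSDARG00000042552 was 5.86-fold lower, and the CACNA1S copy ENSDARG00000029457 was not called, at 76.1, 58.4 and 102.5 CPM in EOM and 76.1, 59.6 and 52.3 CPM in trunk. STAC3, which couples sensor and channel, was 2.23-fold lower, and the JPH1 copy ENSDARG00000038826, a junctophilin that holds membrane and reticulum together, 5.60-fold lower.

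The pumps that take calcium back differed by paralog. atp2a1 had 16356, 16436 and 17070.4 CPM in EOM, against 5534, 4912 and 6245 CPM in trunk (log2 fold change 1.58 ± 0.14, adjusted p = 5.26e-05). atp2a1l had 5321, 6854 and 6316 CPM in EOM, against 31104, 45825 and 31440.2 CPM in trunk (log2 fold change -2.55 ± 0.20, adjusted p = 2.33e-05). The slow and cardiac pump atp2a2a was 10.4-fold lower, at 384, 421 and 363 CPM in EOM and 4920.4, 3869 and 3367 CPM in trunk. Small inhibitors of the pump were higher, pln2, a phospholamban, 6.04-fold, and si:ch1073-322i20.3, listed with the synonym sln for sarcolipin, 10.9-fold. The store proteins CASQ2 and hrc, which bind calcium in the lumen, were 3.37-fold and 4.21-fold higher, and the CASQ1 copy ENSDARG00000038716 was 3.34-fold lower, its sister gene not being called. The STIM1 copy ENSDARG00000060723, the sensor that opens store-operated entry, was 3.44-fold higher.

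Parvalbumins, soluble calcium buffers that speed relaxation, were lower in 5 of 7 tested genes. Summed over the list they held 8677, 10305 and 9372 CPM in EOM, against 56160.2, 62662 and 44035 CPM in trunk. pvalb1 had 16.6, 41.2 and 48.3 CPM in EOM, against 4064, 8012 and 5938 CPM in trunk (log2 fold change -7.41 ± 0.52, adjusted p = 2.76e-05). pvalb3 was 17.9-fold lower and pvalb4 only 2.79-fold lower. pvalb4 held 82.3% ± 1.78 of parvalbumin reads in EOM and 40.1% ± 6.04 in trunk (SD, n = 3 each).

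At the surface membrane, the ATP1B1 copy ENSDARG00000076833, a sodium pump beta subunit, had 425, 491 and 532 CPM in EOM, against 18.9, 15.9 and 19.2 CPM in trunk (log2 fold change 4.74 ± 0.18, adjusted p = 7.50e-07). kcnn3, a calcium-activated potassium channel, was 8.34-fold higher, while the CLCN1 copy ENSDARG00000012269, the muscle chloride channel, and scn4aa, a muscle sodium channel, were 4.43-fold and 4.77-fold lower. The second sodium channel gene scn4ab overlapped, at 161, 172 and 207 CPM in EOM and 186, 233 and 163 CPM in trunk.

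**Figure D3:**
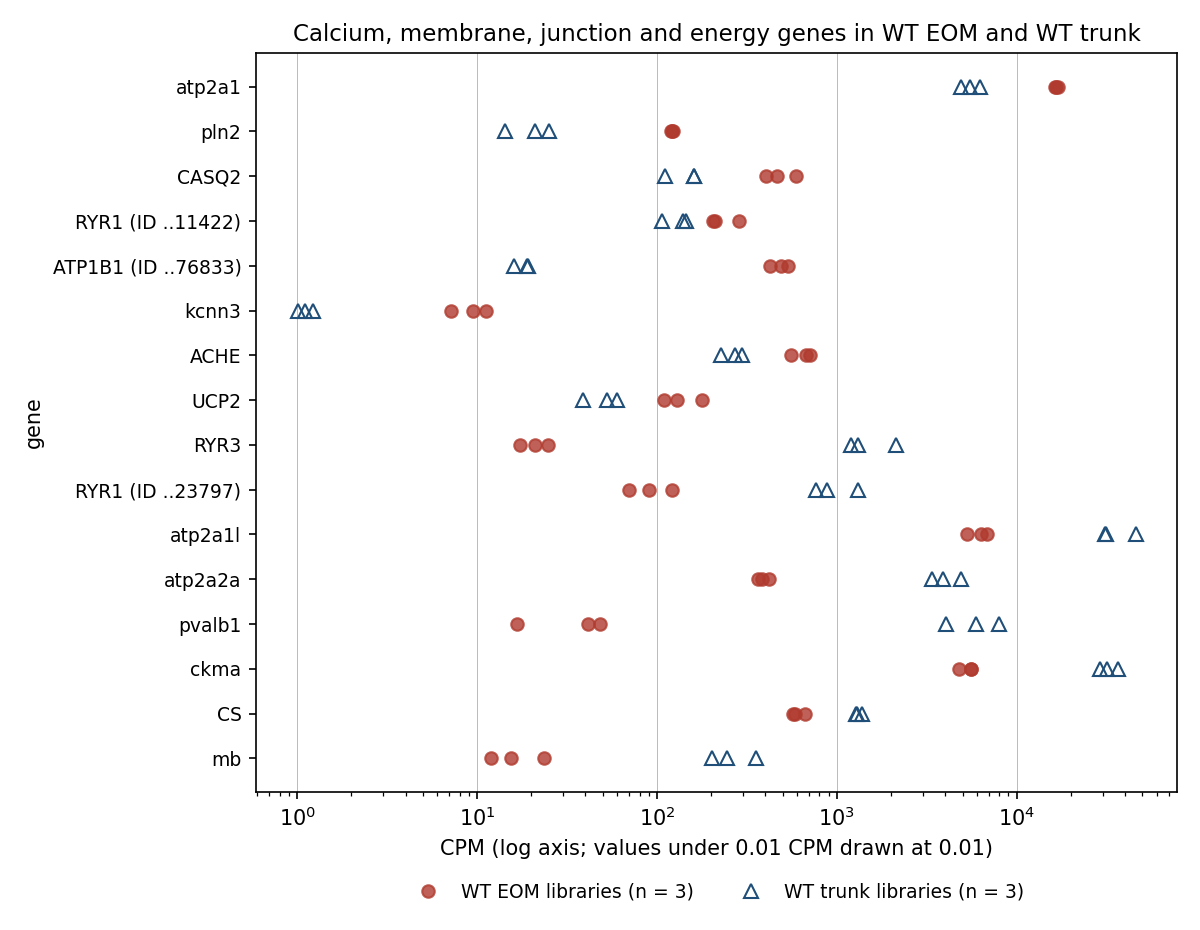
CPM of 16 calcium handling, membrane, junction and energy genes in each WT library, on a log axis; filled circles are the 3 EOM libraries and open triangles the 3 trunk libraries. RYR3 lies at 17.3 to 24.9 CPM in EOM and 1194 to 2123 CPM in trunk.

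Genes of the nerve contact were more often higher in EOM, 13 of 23 tested against 2 lower, or 1 lower without EOM library 1. The acetylcholine receptor subunit CHRNA1 had 244, 254 and 252 CPM in EOM, against 97.7, 99.1 and 103.3 CPM in trunk (log2 fold change 1.32 ± 0.13, adjusted p = 9.16e-05). CHRND was 1.93-fold higher, and the CHRNB1 copy ENSDARG00000022532 had 4.29, 4.64 and 3.81 CPM in EOM and 0.109, 0.120 and 0.0251 CPM in trunk (log2 fold change 5.59 ± 0.39, adjusted p = 1.24e-05). The more abundant the CHRNB1 copy ENSDARG00000069660 was not called, at 39.3, 30.0 and 43.4 CPM in EOM and 33.1, 44.6 and 25.9 CPM in trunk. ACHE, the esterase that ends the signal, had 677, 556 and 708 CPM in EOM and 298, 272 and 227 CPM in trunk (log2 fold change 1.28 ± 0.17, adjusted p = 3.81e-04), and COLQ, its collagen anchor, was 3.08-fold higher. AGRN, the nerve signal that clusters receptors, was 2.63-fold higher. CHRNE, the adult receptor subunit, overlapped, at 86.8, 106.5 and 81.3 CPM in EOM and 80.3, 87.3 and 97.7 CPM in trunk. DOK7, an activator of the receptor kinase MuSK, was 4.15-fold lower and its paralog dok7a 1.75-fold higher, a call lost without trunk library 1 or 3.

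Myelin and Schwann cell genes were higher for 10 of 18 tested and lower for 3. mbpb, myelin basic protein, had 469, 587 and 483 CPM in EOM, against 128, 99.4 and 100.4 CPM in trunk (log2 fold change 2.23 ± 0.17, adjusted p = 2.33e-05). S100B was 7.13-fold higher and PMP22 3.23-fold higher. prx, periaxin, went the other way at 209, 145 and 214 CPM in EOM and 546, 831 and 426 CPM in trunk (log2 fold change -1.67 ± 0.27, adjusted p = 0.00107). SOX10, the Schwann cell factor, overlapped between the tissues. The axonal neurofilament nefla had 2.48, 4.17 and 3.15 CPM in EOM and 0.460, 0.144 and 0.577 CPM in trunk (log2 fold change 3.05 ± 0.44, adjusted p = 5.95e-04). PRPH, peripherin, was 5.50-fold lower in EOM. The neurofilament nefma was 2.32-fold lower and SYT1, a synaptotagmin of nerve endings, 1.88-fold. The nefma call was lost without EOM library 2 or 3 or trunk library 1 or 2, the SYT1 call without EOM library 2 or 3, and both on unscaled totals. Axon genes as a list gave 7 of 18 higher and 3 lower. Of these 18, 6 passed the filter on low counts through EOM alone and 1 through trunk alone, so each of those could be called in 1 direction only. Leaving out EOM library 1, trunk library 2 or trunk library 3 left 4 higher, and leaving out EOM library 2 or 3 left 1 lower. Some of these are also retinal genes, and the photoreceptor sums of the libraries are given below.

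Endothelial genes were lower for 21 of 35 tested and higher for 4. kdrl, a VEGF receptor, had 52.5, 63.4 and 65.6 CPM in EOM and 141, 127 and 144 CPM in trunk (log2 fold change -1.18 ± 0.15). cdh5, the cadherin of endothelial junctions, had 52.4, 63.0 and 60.8 CPM in EOM and 119, 119.6 and 120.3 CPM in trunk (log2 fold change -1.03 ± 0.14). In both cases every EOM library lay below every trunk library. KDR was 3.88-fold lower, flt1 2.61-fold lower and the CLDN5 copy ENSDARG00000014059, of the tight junction, 2.61-fold lower. The list summed to 591, 705 and 638 CPM in EOM and 1038, 909 and 963 CPM in trunk, with no overlap. The count moved with 1 library: 10 genes were lower without EOM library 1, 1 was higher without trunk library 2 or trunk library 3, and on unscaled totals 8 were lower and 7 higher. TAL1, a blood and endothelial factor, was 2.73-fold higher in EOM.

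Vessel growth signals were higher for 5 of 17 tested, near the 25.6% over all genes, and lower for 7. VEGFD, a growth factor for lymph and blood vessels, had 185, 134 and 160.0 CPM in EOM, against 6.44, 6.96 and 5.17 CPM in trunk (log2 fold change 4.69 ± 0.21, adjusted p = 1.49e-06). CXCL12, a chemokine that guides vessels and nerves, was 2.81-fold higher and its paralog cxcl12b 2.21-fold lower. ANGPT1, which steadies vessels, was 4.11-fold lower and the EPAS1 copy ENSDARG00000057671, a hypoxia factor, 4.01-fold lower. Mural cell genes, those of pericytes and vessel muscle, were higher for 6 of 16 tested and lower for 5, and their sums overlapped between the tissues. rgs5b had 48.0, 57.9 and 38.64 CPM in EOM and 2.91, 1.61 and 2.98 CPM in trunk (log2 fold change 4.27 ± 0.27, adjusted p = 8.34e-06). Other markers of this list parted in direction. CSPG4 was 4.12-fold lower, KCNJ8 3.81-fold and ABCC9 2.29-fold, the last not called on unscaled totals. Against these, foxf2a was 5.18-fold higher, and PDGFRB was not called. RGS5 was 1.49-fold lower, a call lost without any 1 library other than EOM library 2 and on unscaled totals. Erythrocyte genes were higher for 7 of 11 tested, hbaa1, a globin, with 1316, 1888 and 920.4 CPM in EOM and 293, 289 and 380.3 CPM in trunk (4.28-fold higher, adjusted p = 3.01e-04). EOM library 3 had the lowest EOM level of this gene.

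Matrix genes were more often higher in EOM. Fibroblast and matrix protein genes were called higher for 32 of 52 tested and lower for 10. elnb, an elastin, had 9.40, 8.31 and 9.31 CPM in EOM, against 0.372, 0.192 and 0.451 CPM in trunk (log2 fold change 4.73 ± 0.28, adjusted p = 6.07e-06). fbln5 and mfap5, which act in elastic fibre assembly, were 10.3-fold and 6.52-fold higher. The SPON1 copy ENSDARG00000023694, a secreted adhesion protein, had 57.3, 48.0 and 58.0 CPM in EOM and 0.964, 0.288 and 1.05 CPM in trunk (log2 fold change 6.14 ± 0.38, adjusted p = 6.88e-06). DCN, decorin, was 4.58-fold higher, the FN1 copy ENSDARG00000019815, fibronectin, 4.57-fold, and MMP2, a gelatinase, 3.28-fold. The POSTN copy ENSDARG00000104267, periostin, was 6.50-fold lower, at 16.2, 23.6 and 12.7 CPM in EOM and 97.8, 93.2 and 150.2 CPM in trunk.

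Collagens gave 11 of 27 tested higher and 7 lower, the lower count being near the 23.2% over all genes. The type VI chains col6a1 and COL6A2, of the sheath around fibres, were 2.55-fold and 2.77-fold higher. COL1A2, of fibrillar collagen, had 185, 236 and 180.5 CPM in EOM and 62.6, 64.4 and 132 CPM in trunk (log2 fold change 1.21 ± 0.29, adjusted p = 0.00841), trunk library 3 being the high one of its group. The COL12A1 copy ENSDARG00000078322 was 4.66-fold lower. In the basement membrane, lama2, the laminin chain lost in a congenital dystrophy of people, had 1.18, 0.960 and 1.86 CPM in EOM, against 10.01, 17.1 and 11.01 CPM in trunk (log2 fold change -3.25 ± 0.31, adjusted p = 6.78e-05). lamb2l, a laminin beta chain, had 3.41, 2.87 and 3.02 CPM in EOM and 0.175, 0.0720 and 0.426 CPM in trunk (log2 fold change 3.79 ± 0.47, adjusted p = 2.83e-04). The NID1 copy ENSDARG00000068710, nidogen, was 2.88-fold higher. KERA, a small proteoglycan of cornea and tendon, had 4.93, 4.32 and 6.90 CPM in EOM and 0.153, 0 and 0.0251 CPM in trunk (log2 fold change 6.38 ± 0.60, adjusted p = 6.53e-05).

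Immune genes were seldom lower in EOM. Of 40 tested macrophage and pan-leukocyte genes 28 were higher and none was lower. apoeb, an apolipoprotein of fish macrophages and microglia, had 368, 494 and 387 CPM in EOM, against 60.1, 40.9 and 57.8 CPM in trunk (log2 fold change 2.98 ± 0.21, adjusted p = 1.37e-05). cd74a, the chaperone of class II antigen presentation, had 369, 383 and 352 CPM in EOM and 117, 108.4 and 127 CPM in trunk (log2 fold change 1.65 ± 0.14, adjusted p = 3.97e-05). The scavenger receptor marco was 2.12-fold higher, c1qb 2.80-fold, and ptprc, the pan-leukocyte CD45, 1.93-fold. The list summed to 1331, 1536 and 1329.9 CPM in EOM, against 492, 473 and 485 CPM in trunk. Neutrophil genes were higher for 6 of 15 tested, lymphocyte genes for 9 of 23, and antigen presentation and interferon genes for 13 of 30. Over all genes the share was 25.6%. The filter on low counts was passed through EOM alone by 8 of the 23 lymphocyte, 5 of the 40 macrophage and 2 of the 15 neutrophil genes. For those genes no other direction could be called. In the mutant libraries 26 of 28 macrophage, 6 of 7 neutrophil and 6 of 10 lymphocyte calls were called in the same direction. For antigen presentation and interferon genes it was 6 of 14, beside 7133 of 8821 WT calls over all genes. IRF8, a factor of macrophages and dendritic cells, was 2.98-fold higher, cxcl18b, a neutrophil chemokine of fish, 2.16-fold, while tbx21, a factor of Th1 lymphocytes, was lower at 1.36, 0.910 and 2.05 CPM in EOM and 3.61, 5.30 and 3.31 CPM in trunk.

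**Figure D4:**
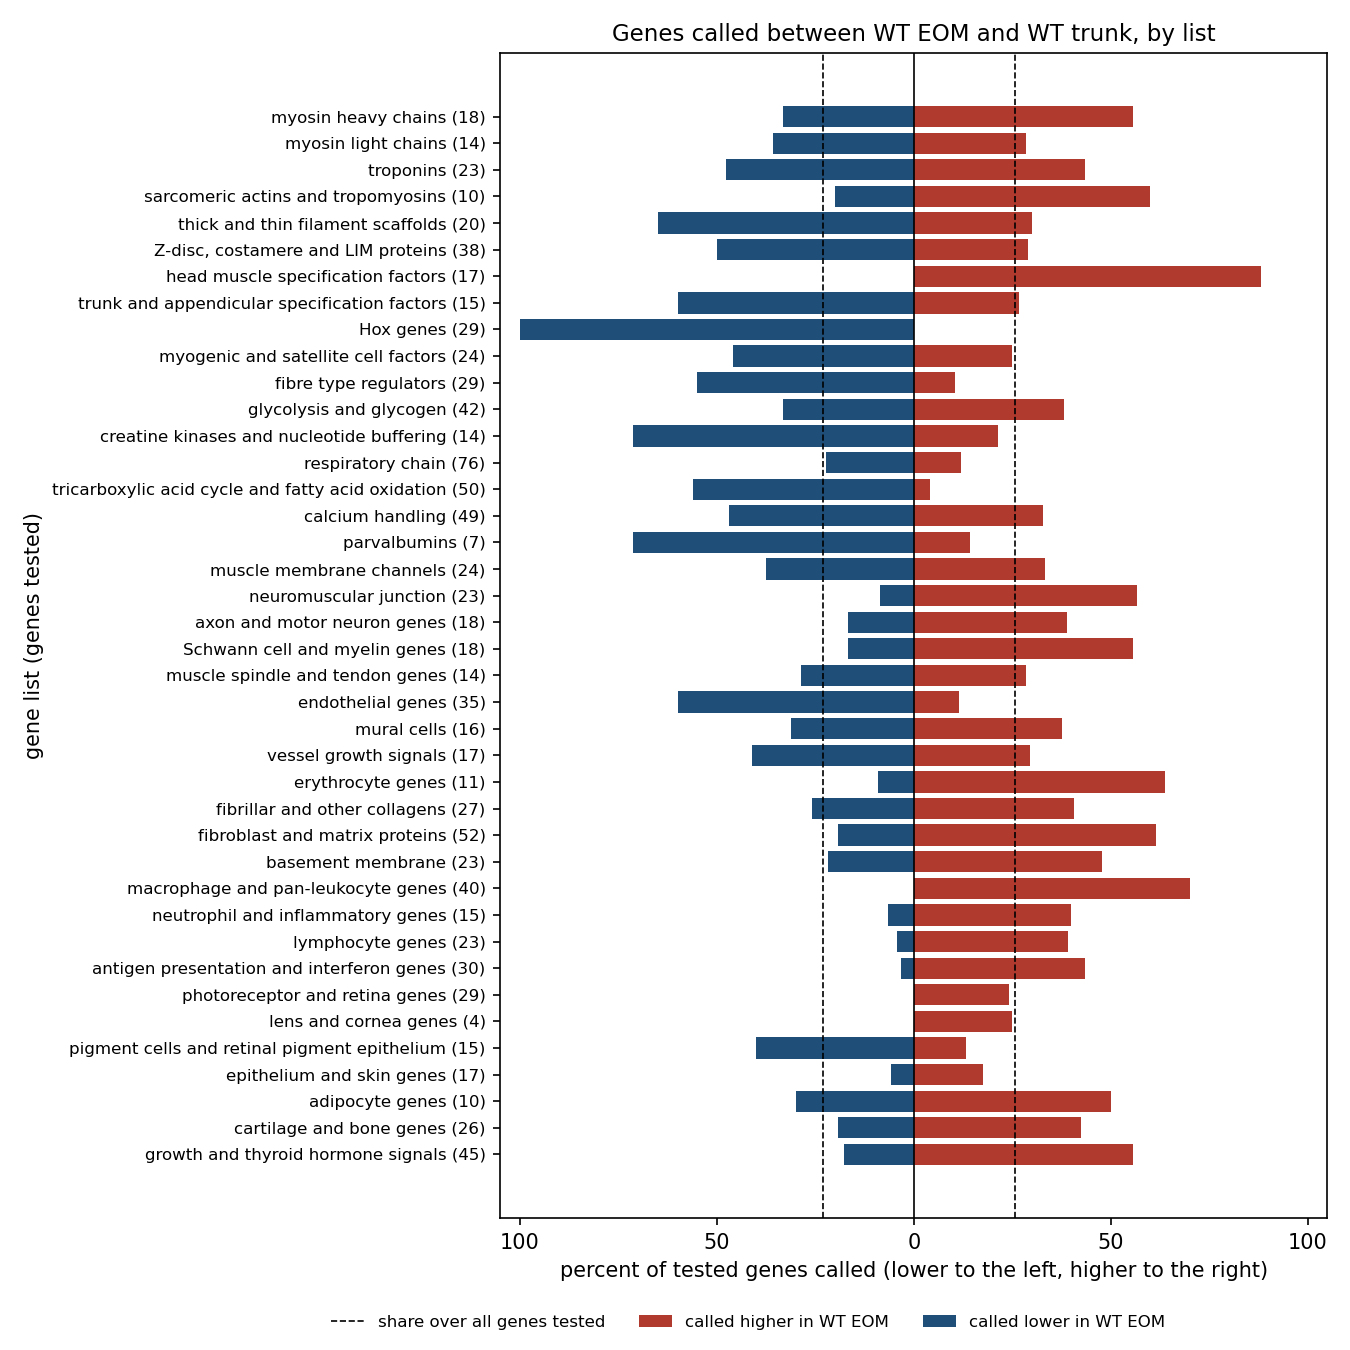
Share of the tested genes of each list called higher (right) and lower (left) in WT EOM, in percent, with the number of genes tested beside the name. Dashed lines mark 25.6% higher and 23.2% lower over all genes. Head factors, Hox genes and photoreceptor genes passed the filter on low counts largely through the tissue where they are high. Their bars are not comparable with the others. Other lists held such genes too: 11 of 26 cartilage and bone genes, 8 of 23 lymphocyte genes and 6 of 18 axon genes passed through EOM alone.

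Markers of other cell types were also read. The 38 matched photoreceptor and retina genes summed to 560.4, 315 and 64.4 CPM in EOM libraries and 111.8, 13.8 and 14.4 CPM in trunk libraries, with EOM library 1 highest and trunk library 1 above EOM library 3. Without EOM library 1 and trunk library 1 the number of genes called over the whole transcriptome was 4861, and the share of that drop due to fewer libraries was not tested. Lens and cornea genes stayed low, at 4.46, 2.91 and 5.16 CPM in EOM and 3.72, 3.14 and 2.83 CPM in trunk, with 5 of 18 at 0 in all libraries. Of the 15 tested genes of the pigment list 6 were lower in EOM and 2 higher, with GPNMB 19.9-fold lower and SLC45A2 10.97-fold higher. That list summed to 45.0, 24.6 and 13.4 CPM in EOM and 48.0, 33.0 and 44.1 CPM in trunk. TG, thyroglobulin, the precursor of thyroid hormone, had 29.2, 512 and 18.8 CPM in EOM and 0.547, 1.44 and 0.426 CPM in trunk (log2 fold change 7.86 ± 1.86, adjusted p = 0.0186). EOM library 2 held most of it, and without that library the log2 fold change was 4.90. The call was lost without trunk library 2 or trunk library 3, at an adjusted p of up to 0.07. Adipocyte genes were higher for 5 of 10 tested and lower for 3, the ADIPOQ copy ENSDARG00000062228, adiponectin, being 6.26-fold higher. Epithelium and skin genes were higher for 3 of 17 and lower for 1, both under the shares over all genes (25.6% and 23.2%). The median log2 fold change of that list was -0.28, while icn, an S100 protein, was 4.62-fold higher. Summed over that list, EOM libraries held 1767, 1438 and 1573 CPM, against 1044, 598 and 1072 CPM in trunk libraries, with no overlap. Cartilage and bone genes were higher for 11 of 26 and lower for 5, with hapln1a, a cartilage link protein, 5.67-fold higher. Of these 26, 11 passed the filter on low counts through EOM alone and 1 through trunk alone. Each of those could be called in 1 direction only. The part of such cells in the nerve, matrix and immune differences was not tested.

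**Figure D5:**
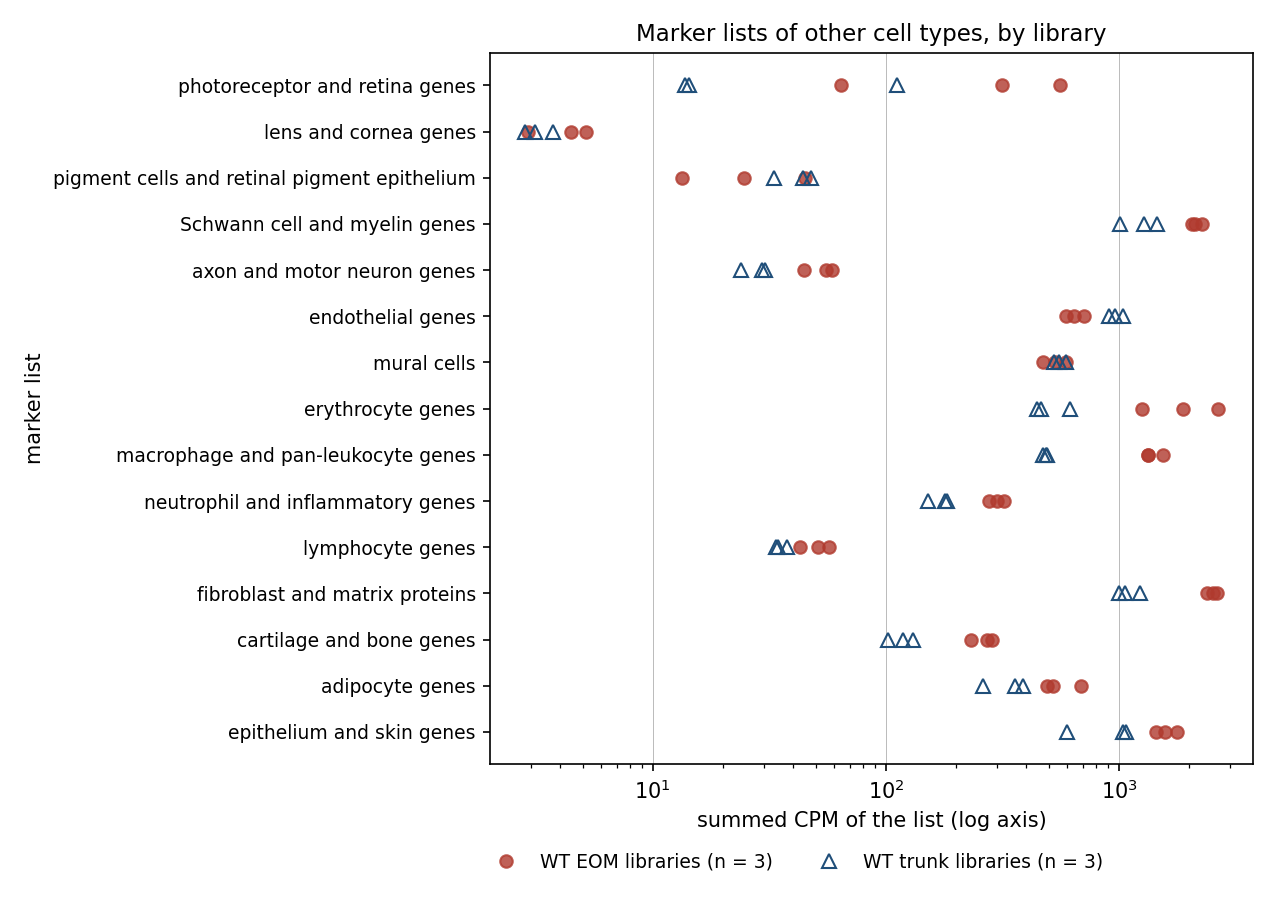
Summed CPM of marker lists in each WT library on a log axis, EOM libraries as filled circles and trunk libraries as open triangles. Macrophage and erythrocyte sums lie apart by tissue, and photoreceptor sums overlap.

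The tissue difference itself was compared between genotypes over all 12 libraries. It differed for 18 of 19687 genes tested (0.0914%), with 1930 at an unadjusted p under 0.05, and 6 of these 18 were among the 1031 listed genes in that fit. The count of 18 was 5 to 8 without WT EOM library 1, WT trunk library 1 or the first or second library of either mutant tissue. The TNNI2 copy ENSDARG00000035958, a fast troponin I, had 414, 433 and 471 CPM in WT EOM, against 0.898, 0.983 and 1.38 CPM in WT trunk. Its log2 fold change of EOM over trunk was 6.38 ± 0.21 in mutant fish and 8.66 ± 0.24 in WT fish, and the difference between these had an adjusted p of 0.00426. ndufa4b, listed with the subunits of cytochrome oxidase, was called in opposite directions. Its log2 fold change was -1.41 ± 0.18 in mutant fish and 0.88 ± 0.18 in WT fish (adjusted p = 0.00159 for the difference).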

How the data were processed

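RNA of dissected extraocular and trunk muscle was sequenced, and the authors deposited raw read counts per gene for each library. Per the submitters' processing notes the tools were STAR and DESeq2 on GRCz11; versions are not given in the sources used here. Each table held reads of either strand, of the sense strand and of the antisense strand. The sense counts were used, since the other strand held 2.77% to 3.18% of stranded gene reads in the wild-type libraries. The authors' tallies apart from genes stayed out of library sizes: multimapping reads were 10.2% to 11.4%, unmapped reads 8.62% to 14.3%, reads in no feature 5.93% to 8.32% and ambiguous reads 1.46% to 1.59%.

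Gene names were matched by ID (29201 of 32520), and 6136 IDs share a symbol with another, so such genes carry their ID. The synonyms myl3 and sln come from the RefSeq table of assembly GRCz12tu. No sequences or coordinates were used here. Some members of the lists are counted but not reported here by name.

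The 6 wild-type libraries were fitted with edgeR 4.0.16 in R 4.3.3 (filterByExpr, scaling by the trimmed mean of M-values, robust quasi-likelihood test, Benjamini-Hochberg adjustment, threshold 0.05), a test first tried on simulated data. The 6 mutant libraries were fitted apart, and the interaction of tissue and genotype over all 12. A group with no read was set to a floor of 3 reads per library for folds written as at least. Such floors cover counting error only. Alternatives were DESeq2 1.42.0, other scalings and filters, counts of either strand, a fit of all 12 libraries, a replicate block, each library left out, and 1 pair of libraries left out, the last chosen after seeing the data.

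The comparison, the 42 lists and their members were chosen with earlier results of these data known, and 2 lists (other actins and tropomyosins, and thyroid follicle genes) were added after values were seen here. Lists were described by counts and medians only. Any list member could be named. Outside the lists, the 15 largest changes in each direction could be named among called genes with a symbol, no overlap between tissues and a mean of at least 10 CPM in the higher tissue.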

Additional observations from a re-analysis of the deposited data

Results flagged for a closer look

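In 2 named genes the tissue difference in WT fish was not that in mutant fish, by edgeR's test of the interaction over 12 libraries. For the TNNI2 copy ENSDARG00000035958, the log2 fold change of EOM over trunk was 6.38 in mutants and 8.66 in WT, and WT minus mutant was 2.26 (adjusted p = 0.00426). The gene was called higher in EOM in both genotypes. For ndufa4b it was -1.41 in mutants and 0.88 in WT, and WT minus mutant was 2.26 (adjusted p = 0.00159). This gene was called lower in mutant EOM and higher in WT EOM. Age, strain label and library kit were the same in both genotypes by the labels, and the cause was not tested.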

How the results depend on the processing

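The number of genes called between WT EOM and WT trunk was 8991, and 6896 to 8712 with 1 library left out, 9319 with DESeq2, 8971 with RLE factors, 10471 in the fit of all 12 libraries and 10926 on unscaled totals. Without EOM library 1 and trunk library 1 together it was 4861, the only alternative run that moved this count by more than 1.5 times. Between mutant EOM and mutant trunk 9920 genes were called, 51.6% of them higher in EOM, and 12904 on unscaled totals, 87.9% of them higher. Of the 220 named genes compared over the alternatives 210 were called, and 7 of these (myha, TG, dok7a, nefma, SYT1, RGS5 and the ACTA1 copy ENSDARG00000055618) lost the call without 1 library. Outside these 220, the ACTA1 copy ENSDARG00000036371 also lost the call without 1 library. Without a filter myha and TG lost it, without EOM library 1 and trunk library 1 together COL1A2, MYOD1, ndufa4b, dok7a, nefma, RGS5 and myha did, in the fit of all 12 libraries nefma did, and on unscaled totals tbx21, ABCC9, SYT1, nefma and RGS5 did, where MYF5, CHRNE, GAPDH, scn4ab, the CACNA1S copy ENSDARG00000029457, the CHRNB1 copy ENSDARG00000069660 and the DES copy ENSDARG00000058656 gained one. The MYL11 copy ENSDARG00000002589 gained one with DESeq2, RLE factors or all 12 libraries and without trunk library 1. The sign turned in 7 genes, 6 of them not called. With 1 library left out the log2 fold change was -0.075 to 0.13 for CHRNE, -0.28 to 0.011 for scn4ab, -0.11 to 0.32 for the CHRNB1 copy ENSDARG00000069660, -0.15 to 0.54 for the PAX7 copy ENSDARG00000070818, -0.037 to 0.14 for the DES copy ENSDARG00000058656 and -0.28 to 0.19 for myh7ba, and on unscaled totals it was 0.50 for scn4ab, 0.58 for myh7ba and 0.0043 for RGS5, which was called lower with scaling. The median of the muscle spindle and tendon list, relative to all genes, was 0.17 without a filter and -0.45 to 0.029 with 1 library left out. The tissue difference between genotypes was called for 18 genes, for 12 on unscaled totals, and for 5 to 19 with 1 library left out, at 5 to 8 without WT EOM 1, WT trunk 1 or the first or second library of either mutant tissue. With the replicate number as a block 6 genes were called there, and 7511 in the WT comparison. Deviations of same-numbered WT libraries correlated at 0.35, -0.20 and -0.02, and those of differently numbered ones at -0.28 to 0.23. With 3 libraries per tissue these values cannot exclude pairing. The labels do not state it, so the numbers were not taken to pair the libraries. With the block, dok7a was the only one of the 220 genes to change its call. Depth set the floor of 3 reads per library at 0.0429 to 0.0651 CPM on unscaled totals. On the scaled library sizes this floor averaged 0.0428 CPM in EOM and 0.0710 CPM in trunk. Genes near the floor in one tissue have folds of unknown size.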

Other observations

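Secreted signals were more often higher in WT EOM, 25 of 45 tested growth, retinoid and thyroid hormone signalling genes against 8 lower, or 5 lower without EOM library 1, EOM library 2 or trunk library 2. WNT11, a Wnt ligand of early muscle fibres in zebrafish, had 32.1, 29.0 and 32.6 CPM in EOM, against 3.31, 1.85 and 2.33 CPM in trunk (log2 fold change 3.64 ± 0.22, adjusted p = 6.15e-06). The insulin-like growth factors igf2a and igf2b were 6.89-fold and 4.71-fold higher, and their binding protein the IGFBP5 copy ENSDARG00000025348 had 751, 759.5 and 696 CPM in EOM and 137, 129 and 160.1 CPM in trunk. mstnb, a myostatin that limits muscle growth, was 2.41-fold higher, as was FSTL3, an inhibitor of such ligands (3.66-fold). DIO2, the enzyme that activates thyroid hormone in tissues, was 3.53-fold higher. ALDH1A2, which makes retinoic acid, and CYP26B1, which degrades it, were 2.19-fold and 3.31-fold higher.

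Outside the lists, the largest changes among called genes with a symbol, no overlap between tissues and at least 10 CPM in the higher tissue began with transcription factors. EMX1 had 9.10, 9.30 and 11.8 CPM in EOM and no read in trunk, at least 142-fold higher at 3 reads per library. lhx1a had 18.0, 18.8 and 20.27 CPM in EOM and 3 reads in the 3 trunk libraries together. OSR2, a zinc finger factor of limb and palate, had 43.5, 53.1 and 43.1 CPM in EOM, against 0.591, 0.336 and 0.552 CPM in trunk (log2 fold change 6.55 ± 0.24, adjusted p = 5.81e-07). Among muscle and nerve related genes, FHL5, a LIM-only protein, had 578, 728 and 688 CPM in EOM, against 4.34, 3.79 and 3.59 CPM in trunk (log2 fold change 7.41 ± 0.21, adjusted p = 2.97e-07). rtn4rl2b, related to the receptor for myelin inhibitors of axon growth, had 27.8, 47.5 and 25.3 CPM in EOM and 0.0219, 0 and 0.176 CPM in trunk, and lingo4b had 43.2, 30.4 and 53.8 CPM in EOM and 0.328, 0.0720 and 0.226 CPM in trunk. epd, ependymin, had 189, 74.7 and 55.7 CPM in EOM, with EOM library 1 highest, against 3.37, 0.264 and 0.878 CPM in trunk. mgp, matrix Gla protein, an inhibitor of calcification, was 67.4-fold higher.

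In the other direction, pth1b, a parathyroid hormone gene, had no read in EOM and 17.0, 8.80 and 6.69 CPM in trunk, at least 253-fold lower. notum2, related to the secreted Wnt inhibitor Notum, had 0.0306, 0.0253 and 0.0297 CPM in EOM, against 39.4, 27.6 and 23.2 CPM in trunk (log2 fold change -9.94 ± 0.35, adjusted p = 5.50e-07). meis1a, a cofactor of Hox proteins, had 0.368, 0.354 and 0.193 CPM in EOM and 18.7, 17.5 and 14.6 CPM in trunk (log2 fold change -5.78 ± 0.26, adjusted p = 1.69e-06). kcna6a, a voltage-gated potassium channel, was 41.5-fold lower and acot22, an acyl-CoA thioesterase, 40.7-fold lower. The CALCOCO1 copy ENSDARG00000016391 had 5.30, 3.79 and 3.42 CPM in EOM and 177, 299 and 135 CPM in trunk. The same held for the METTL21C copy ENSDARG00000078878, a lysine methyltransferase of muscle, at 0.0766, 0.0253 and 0.134 CPM in EOM and 14.96, 30.5 and 14.3 CPM in trunk.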
